A study of Mus musculus with 8 samples.

Results

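The genes described here encode the mitochondrial respiratory chain and ATP synthase, measured in 2 mouse cell lines grown alone or together. Members were taken by symbol from the platform annotation: names that start with Nduf, Uqcr, Cox4i, Cox5, Cox6, Cox7, Cox8 or Atp5, together with Sdha, Sdhb, Sdhc, Sdhd, Cyc1 and Cycs. The rule found 92 of the 18193 genes with a probe set of their own, and 90 of them were among the 13196 genes tested. Complex I gave 34 members, its assembly factors (names starting with Ndufaf) 8, complex II 4, complex III 9, complex IV 19, complex V 17 and cytochrome c 1. Ndufa4 and Ndufa4l2 were counted with complex IV, where the Ndufa4 protein is now placed. Cox7b2 (complex IV) and Ndufb4 (complex I) did not pass the filter on low values in any group, so 33 members of complex I and 18 of complex IV were tested.

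The samples were CT26, an established line of mouse colon tumour cells, and RAW264, a mouse macrophage line in long use, shortened to RAW. The groups were CT26 alone, CT26 in co-culture with RAW, RAW alone and RAW in co-culture with CT26, each with 2 arrays. Their replicate numbers, 1 and 2, were taken to mark 2 experiments. In co-culture the RAW cells sat on a transwell insert above the CT26 cells, so that soluble factors could pass without contact. The inserts were joined to the wells 8 h after seeding. Trypsin was used to detach CT26 cells before lysis, whereas lysis of RAW cells took place on the insert, so line and harvest cannot be told apart. The labels name no genetic change or drug in any group.

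The respiratory chain passes electrons from NADH (complex I) and succinate (complex II) through complex III and cytochrome c to oxygen at complex IV. Complexes I, III and IV pump protons across the inner mitochondrial membrane, and complex V, the ATP synthase, lets them return to make ATP. A small share of the subunits is encoded in mitochondrial DNA and the others in the nucleus, and dedicated assembly factors join them. Activated macrophages are known to shift between respiration and glycolysis, and succinate oxidation at complex II is a known point of that control.

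The labels were checked against marker genes. All 13 macrophage markers lay above the detection floor (the 40th percentile of each array, 5.21 to 5.28 log2 units) in both arrays of each RAW group. Their median level was 12.79 in RAW alone and 5.73 in CT26 alone. Of 11 epithelial markers, 8 lay above the floor in CT26 alone (median 5.79), beside 4 in RAW alone (median 5.01). Krt18, Krt20 and Tjp1 were between 10.18 and 11.67 in CT26 alone, whereas Cdh1 and Vil1 were below the floor. Epcam, Krt8 and Cldn4 read 6.92, 5.99 and 5.70 in CT26 alone and 6.88, 5.85 and 5.75 in RAW alone (experiment 1). The median of 8 mesenchymal markers was 11.55 in CT26 alone, beside 5.93 in RAW alone. The markers thus set the lines apart but do not mark CT26 as mainly epithelial. Each array measured a whole culture of CT26 or of RAW cells. A change in every cell and a change in part of the cells therefore cannot be told apart. Array medians lay between 5.88 and 5.94, the median tested gene between 8.37 and 8.51, and the median member between 12.21 and 12.5. The members thus gave brighter signals than most tested genes, whose shares stand beside theirs below. The part of signal level in those shares was not tested. The p-values of the fit without a block measure the spread between samples of 2 experiments. In the fits with the experiment as a block, the shift between experiments is left out of that spread.

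**Figure D1:**
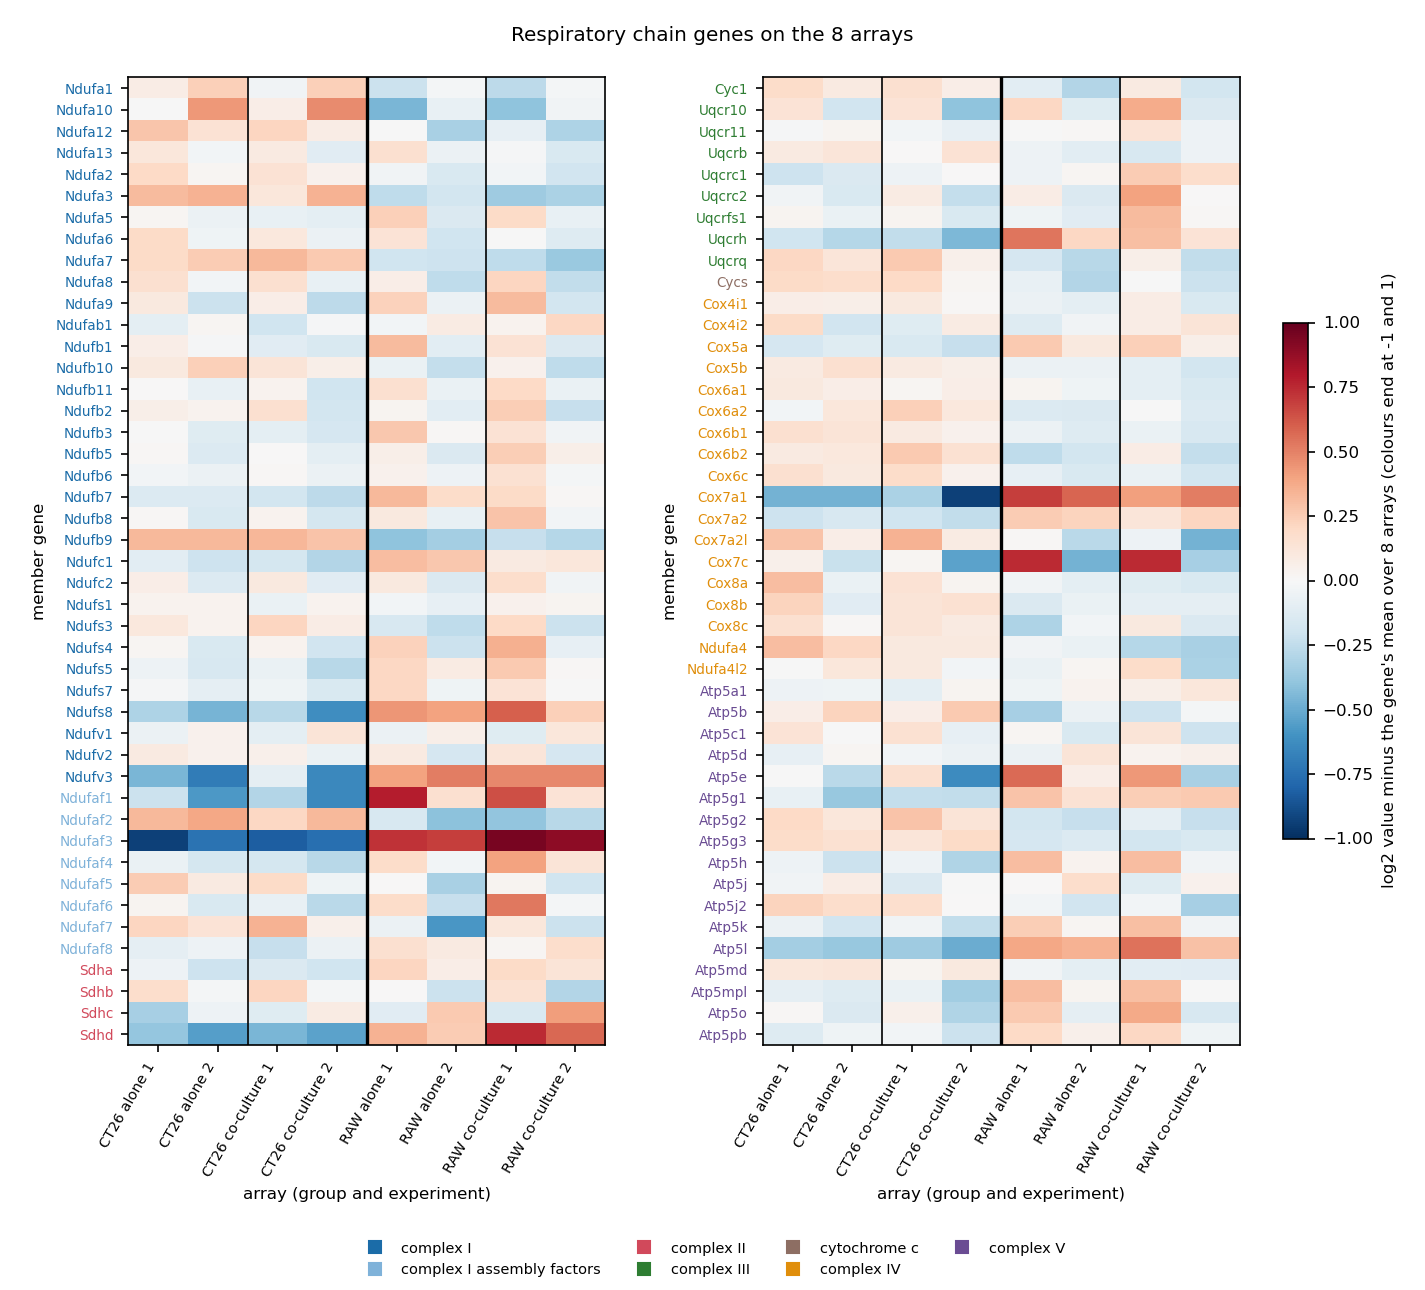
Log2 level of each of the 90 tested members on each of the 8 arrays, minus the member's own mean over all arrays, in rows grouped by complex. Sdhd, Ndufaf3 and Cox7a1 are higher on the 4 RAW arrays than on the 4 CT26 arrays, and Ndufb9 and Ndufa7 are lower.

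Most respiratory chain genes did not pass the test between the lines, and those that did were spread over complexes I to V. Without a block, the calls lower in RAW belonged to complex I and its assembly factors, and in co-culture also to Ndufa4 of complex IV. With both lines grown alone, 16 of 90 members (17.8%) differed between RAW and CT26 at an adjusted p below 0.05, whereas 34.6% of all tested genes did (limma, Benjamini-Hochberg adjustment over all tested genes). Of the 16, 12 were higher in RAW and 4 lower (17% and 17.6% of all genes). In co-culture 15 of 90 members differed (16.7%), 10 higher and 5 lower, beside 34.8% of all genes (17.7% higher, 17% lower). The median difference over the members was 0.01 log2 units alone and 0.08 in co-culture, beside -0.05 and -0.04 over all genes. Leaving out 1 array turned the sign of both, with ranges of -0.11 to 0.01 and -0.03 to 0.13.

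The number of calls depended on how the experiments were treated. With the experiment as a block within each line, 42 members were called alone (20 higher, 22 lower), beside 58.6% of all genes (28.3% higher, 30.4% lower), and 37 in co-culture (23 higher, 14 lower), beside 58% (29% and 28.9%). With a block shared by the lines the counts were 36 (52.9% of all genes) and 31 (52.1%). The block within each line takes out how far the line difference varied between the experiments. Here and below, its p-values between the lines do not measure that spread. Leaving out 1 array of the compared groups lost part of the 16 calls alone and part of the 15 in co-culture.

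The calls recurred across the culture conditions, at no higher a share than over all genes. Both comparisons use the same estimate of each gene's spread. Of the 16 members called alone and the 15 called in co-culture, 13 were shared, all with the same direction. These were 81.2% of the calls alone and 86.7% of those in co-culture, beside 87.7% and 87.2% over all genes. Higher in RAW in both conditions were Ndufs8 and Ndufv3 of complex I, the assembly factor Ndufaf3, Sdhd of complex II, Uqcrh of complex III, Cox7a1 and Cox7a2 of complex IV, and Atp5g1 and Atp5l of complex V. Lower in both were Ndufa3, Ndufa7, Ndufb9 and the assembly factor Ndufaf2, all of complex I. Ndufaf1, Ndufb7 and Ndufc1 passed the test only with the lines alone, and Ndufa4 and Ndufaf4 only in co-culture. Whether the line difference of these 5 genes changed with culture was tested as the difference of the co-culture effects, in which no member was called.

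The promoter sequences below belong to 1 member of each complex that was called higher in RAW in both conditions. They come from RefSeq on build GRCm38.p6, read 5′ to 3′ on the gene's strand and ending at the base before the transcription start. Only the stretch that lies in no other annotated gene is shown, of at most 250 bases. Capitals mark matches on either strand to CCAAT (the CCAAT box, ATTGG on the opposite strand) or CCGGAAG (a core letter pattern of the ETS family, CTTCCGG on the opposite strand).
Ndufs8 (chr19:3912775-3913024, minus strand): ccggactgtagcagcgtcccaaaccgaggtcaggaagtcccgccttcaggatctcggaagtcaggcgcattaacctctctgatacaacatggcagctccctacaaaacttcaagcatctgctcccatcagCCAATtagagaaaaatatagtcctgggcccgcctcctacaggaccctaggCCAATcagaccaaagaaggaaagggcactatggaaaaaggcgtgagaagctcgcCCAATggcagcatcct
Ndufaf3 (chr9:108567437-108567483, minus strand, next to Dalrd3): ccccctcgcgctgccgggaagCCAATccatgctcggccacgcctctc
Sdhd (chr9:50603850-50603900, minus strand, next to Timm8b): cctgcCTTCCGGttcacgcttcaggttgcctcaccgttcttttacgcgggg
Uqcrh (chr4:116075071-116075268, minus strand, next to Lrrc41): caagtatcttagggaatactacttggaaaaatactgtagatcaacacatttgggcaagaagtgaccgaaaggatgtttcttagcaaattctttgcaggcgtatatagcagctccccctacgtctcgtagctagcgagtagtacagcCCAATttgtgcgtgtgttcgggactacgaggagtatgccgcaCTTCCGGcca
Cox7a1 (chr7:30183921-30184170, plus strand): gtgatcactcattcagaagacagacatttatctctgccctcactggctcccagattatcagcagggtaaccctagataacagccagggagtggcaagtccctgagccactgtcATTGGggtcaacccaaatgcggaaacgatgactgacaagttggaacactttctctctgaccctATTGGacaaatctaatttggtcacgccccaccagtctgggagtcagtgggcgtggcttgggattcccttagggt
Atp5g1 (chr11:96075632-96075881, minus strand): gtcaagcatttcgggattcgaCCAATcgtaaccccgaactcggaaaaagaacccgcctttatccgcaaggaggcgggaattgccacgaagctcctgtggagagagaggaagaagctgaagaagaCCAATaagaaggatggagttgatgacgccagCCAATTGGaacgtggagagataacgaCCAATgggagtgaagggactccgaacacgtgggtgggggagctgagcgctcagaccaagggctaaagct

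In Atp5g1 a CCAAT on each strand overlaps as CCAATTGG. Over whole windows of 300 bases (250 before and 50 after the start, both strands), CCAAT was found in 33 of the 75 members with a promoter in the table (44.0%), beside 38.4% of 10565 tested genes and 37.9% of all 27025 promoters. CCGGAAG was found in 18 (24.0%), beside 17.2% and 9.12%. The core pattern of NRF1, a regulator of nuclear genes for respiration, was found in 16 (21.3%), beside 9.82% and 4.78%. AAGATGGCG, a core pattern of YY1, was found in 6 (8.0%), beside 3.05% and 1.49%. The median GC content of the members' windows was 59.0%, beside 60.3% in the tested genes. These are counts of letters, with no test and no measurement of binding.

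Complex I had calls in both directions. Alone, 7 of its 33 tested members were called (21.2%, beside 34.6% of all genes; 4 higher in RAW, 3 lower), and in co-culture 5 (15.2%, beside 34.8%; 2 higher, 3 lower). With the block within each line these became 5 higher and 7 lower alone and 5 higher and 6 lower in co-culture. Its median difference was 0.02 log2 units alone and 0.08 in co-culture. Ndufs8, a core subunit that carries iron-sulfur clusters, read 12.59 and 12.44 in CT26 alone, 12.62 and 12.28 in CT26 co-culture, 13.34 and 13.3 in RAW alone, and 13.5 and 13.14 in RAW co-culture (log2 level, experiments 1 and 2 here and below). All RAW arrays lay above all CT26 arrays. The difference was 0.80 ± 0.17 log2 units alone (standard error; adjusted p = 0.0109, limma) and 0.87 ± 0.17 in co-culture (adjusted p = 0.00766). The call alone was lost with the mean of the probe sets whose names do not end in _x_at or _s_at (0.578; adjusted p = 0.0794), a mean that takes in a dim probe set with a difference of 0.11.

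Ndufv3, an accessory subunit of the NADH-binding part, read 11.06 and 10.82 in CT26 alone, 11.43 and 10.87 in CT26 co-culture, 11.92 and 12.03 in RAW alone, and 12.0 and 12.0 in RAW co-culture. The groups of the lines did not overlap, and CT26 co-culture of experiment 1 was the highest of the CT26 arrays. The difference was 1.03 ± 0.20 alone (adjusted p = 0.00605) and 0.85 ± 0.20 in co-culture (adjusted p = 0.0139). Ndufc1 and Ndufb7, accessory subunits, were 0.44 and 0.39 log2 units higher in RAW alone (adjusted p = 0.0211 and 0.0462, limma). In co-culture they were 0.34 and 0.32 higher (adjusted p = 0.054 and 0.0849), past the threshold there with the block within each line (adjusted p = 0.00994 and 0.0129).

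The members of complex I that were lower in RAW are accessory subunits. Ndufb9 read 12.77 and 12.77 in CT26 alone, 12.78 and 12.73 in CT26 co-culture, 12.05 and 12.11 in RAW alone, and 12.22 and 12.16 in RAW co-culture. It differed by -0.69 ± 0.11 alone (adjusted p = 0.00245) and -0.57 ± 0.11 in co-culture (adjusted p = 0.00581). Ndufa7 read 12.49 and 12.55, then 12.62 and 12.56 in the CT26 groups, and 12.1 and 12.09, then 12.04 and 11.93 in the RAW groups. Both genes separated the lines on every array. Ndufa7 differed by -0.43 ± 0.11 alone (adjusted p = 0.0211) and -0.60 ± 0.11 in co-culture (adjusted p = 0.00479), and Ndufa3 by -0.55 ± 0.12 and -0.56 ± 0.12 (adjusted p = 0.0123 and 0.0115). The catalytic subunits Ndufv1, which binds NADH, and Ndufs1, an iron-sulfur subunit, differed by 0.02 ± 0.14 and -0.09 ± 0.11 alone (adjusted p = 0.948 and 0.569), with Ndufv1 between 11.11 and 11.36 on all arrays.

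The assembly factors of complex I gave 3 calls among 8 in each condition (37.5%, beside 34.6% of all genes alone and 34.8% in co-culture). Ndufaf3, needed for building the part of complex I that joins membrane and matrix arms, showed the largest difference among all members. It read 8.19 and 8.39 in CT26 alone, 8.30 and 8.37 in CT26 co-culture, 9.85 and 9.82 in RAW alone, and 10.08 and 10.02 in RAW co-culture, with no overlap. The difference was 1.54 ± 0.12 log2 units alone (adjusted p = 7.56e-05) and 1.71 ± 0.12 in co-culture (adjusted p = 4.36e-05). Ndufaf1, which acts on the membrane arm, read 9.09 and 8.73 in CT26 alone and 10.09 and 9.47 in RAW alone, and differed by 0.87 ± 0.28 (adjusted p = 0.0489). It was lost with no filter on dim probe sets (0.0565), with cyclic loess (0.053) and with a mean-variance trend (0.0506), and its spread between experiments was wide. Ndufaf2, a late assembly factor, was lower in RAW by -0.64 ± 0.13 alone and -0.61 ± 0.13 in co-culture (adjusted p = 0.00909 and 0.0112). Ndufaf4 was 0.49 ± 0.15 higher in RAW than in CT26 in co-culture (adjusted p = 0.0397; 0.164 with the mean of its probe sets) and 0.20 ± 0.15 alone (adjusted p = 0.339).

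**Figure D2:**
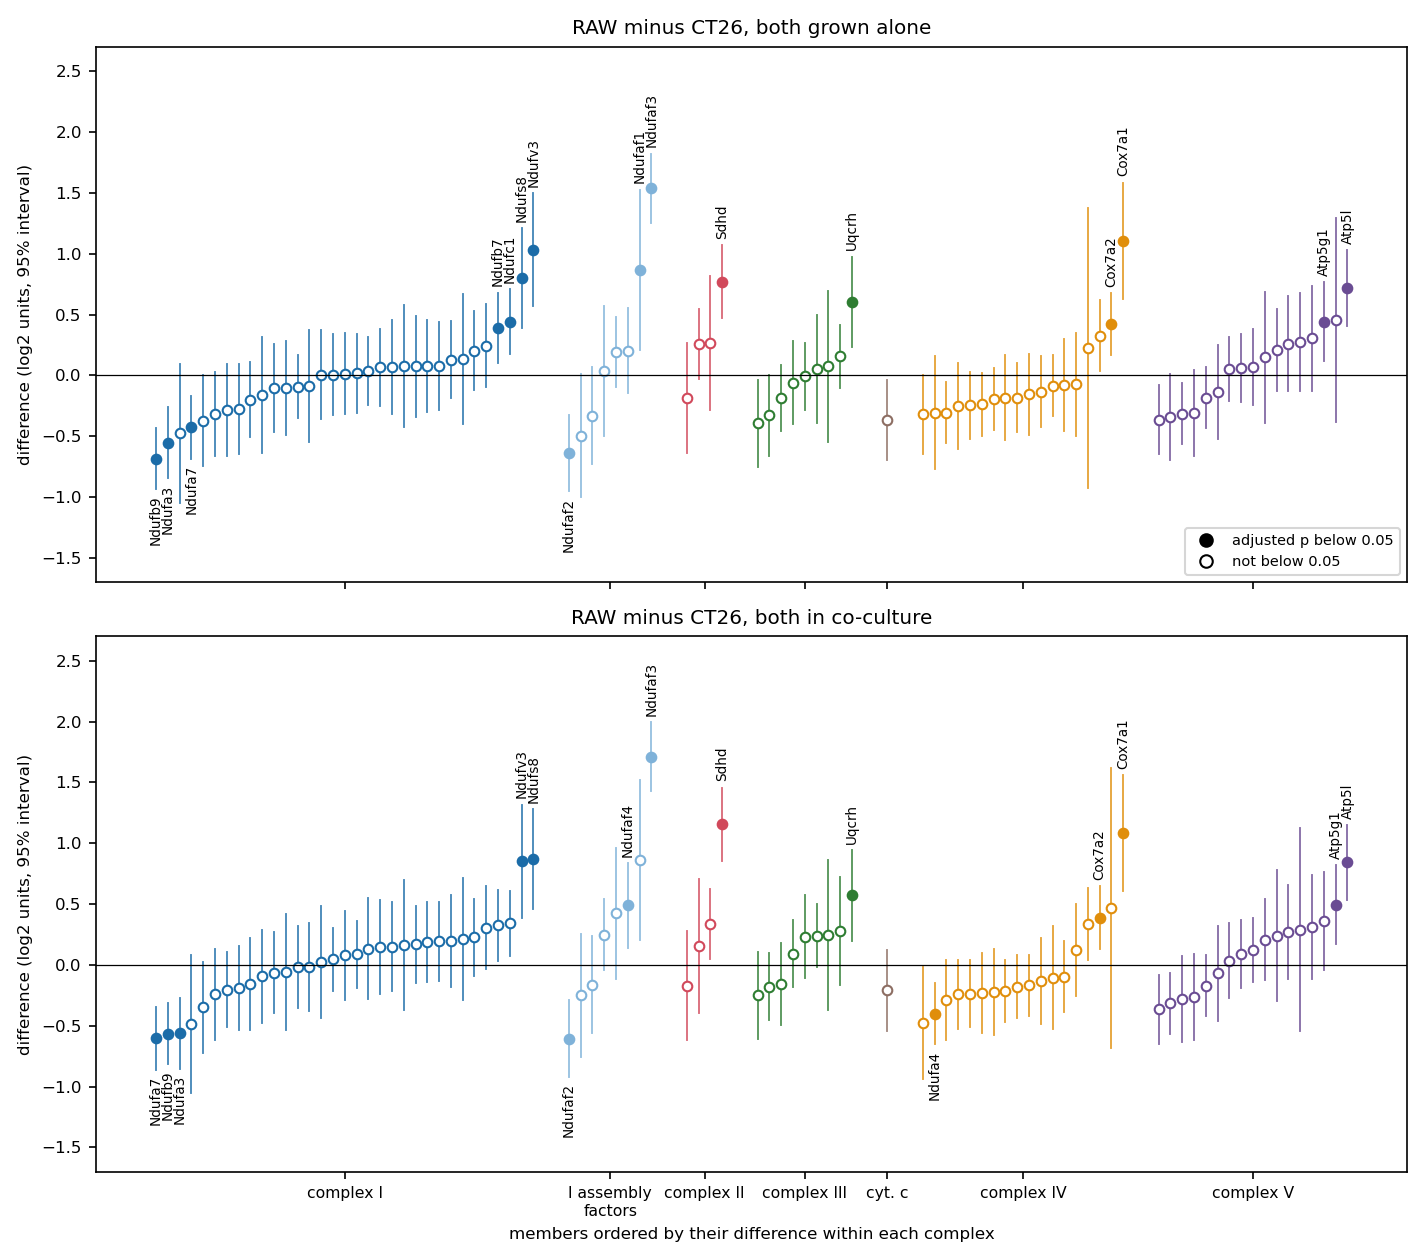
Difference between RAW and CT26 (log2 units) for each tested member with its 95% interval, alone (top) and in co-culture (bottom), ordered within each complex. Intervals and calls are from the limma fit without a block. Filled points passed an adjusted p of 0.05, 16 alone and 15 in co-culture, and most members of complex IV lie below 0.

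Sdhd was the called member of complex II in both conditions. It encodes one of the anchors that hold succinate dehydrogenase in the membrane. Sdhd read 11.86 and 11.69 in CT26 alone, 11.79 and 11.71 in CT26 co-culture, 12.59 and 12.5 in RAW alone, and 12.99 and 12.82 in RAW co-culture. The lowest RAW array lay above the highest CT26 array, and both RAW co-culture arrays lay above both RAW alone arrays. The line difference was 0.77 ± 0.13 alone (adjusted p = 0.00315) and 1.16 ± 0.13 in co-culture (adjusted p = 0.00043). A second Sdhd probe set gave 0.79 and 1.12. The flavoprotein Sdha differed by 0.26 ± 0.12 alone (adjusted p = 0.151; 0.0352 with the block within each line), its second probe set by -0.27, so the probe sets disagree. The iron-sulfur subunit Sdhb differed by -0.19 ± 0.19 (adjusted p = 0.506).

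In complex III the hinge protein Uqcrh was called in both conditions. It read 12.76 and 12.67 in CT26 alone, 12.71 and 12.51 in CT26 co-culture, 13.49 and 13.16 in RAW alone, and 13.26 and 13.09 in RAW co-culture. RAW was higher on every array, by 0.60 ± 0.16 alone (adjusted p = 0.0226) and 0.57 ± 0.16 in co-culture (adjusted p = 0.0283). The mean of the probe sets whose names do not end in _x_at or _s_at gave 0.355 alone (adjusted p = 0.06). The core protein Uqcrc1 and the Rieske iron-sulfur protein Uqcrfs1 differed by 0.16 and -0.06 alone (adjusted p = 0.317 and 0.798). Cyc1, the haem subunit that hands electrons to cytochrome c, differed by -0.33 ± 0.14 and cytochrome c itself (Cycs) by -0.37 ± 0.14 (adjusted p = 0.121 and 0.0868). With the block within each line both passed alone (adjusted p = 0.0117 and 0.009) and neither in co-culture (adjusted p = 0.144 and 0.0772).

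Complex IV was the group that lay mostly on the CT26 side. Its median difference was -0.17 log2 units alone and -0.17 in co-culture, and it stayed below 0 under every single-array omission and under cyclic loess (-0.12 and -0.16). Alone, 12 of its 18 tested members were lower in RAW in both experiments and 3 were higher, beside 45.3% and 37.4% of all genes. The 12 take in the dimmer probe sets of Cox6a2, Cox6b2, Cox8c and Ndufa4l2 (mean 8.06, 5.36, 8.02 and 7.11 in CT26 alone). Cox6b2 was below the floor in RAW alone. The 3 take in the dim Cox7a1 (5.375 in CT26 alone). Without a block, Cox7a1 and Cox7a2 were called higher in RAW in both conditions, and Ndufa4 was called lower in co-culture. With the block within each line, 3 members of complex IV were called higher and 5 lower alone, and 4 higher and 3 lower in co-culture.

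Cox7a1 and Cox7a2 encode alternative forms of the same subunit, the first known from heart and skeletal muscle and the second from most tissues. Cox7a1 read 5.37 and 5.38 in CT26 alone, 5.53 and 4.91 in CT26 co-culture, 6.54 and 6.43 in RAW alone, and 6.25 and 6.35 in RAW co-culture. The CT26 values lay close to the floor, and that of co-culture in experiment 2 below it, so the level in CT26 is poorly measured. The difference was 1.11 ± 0.20 alone (adjusted p = 0.00513) and 1.08 ± 0.20 in co-culture (adjusted p = 0.00558). Cox7a2 read between 13.52 and 13.61 on the CT26 arrays and between 13.89 and 14.02 on the RAW arrays. It was higher in RAW by 0.42 ± 0.11 alone and 0.39 ± 0.11 in co-culture (adjusted p = 0.0216 and 0.0291).

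The other tissue isoforms did not pass the test in either condition. Alone, the common forms Cox4i1, Cox6a1, Cox6b1 and Cox8a differed by -0.14, -0.09, -0.24 and -0.18 (adjusted p = 0.452, 0.59, 0.14 and 0.393), Cox6a1 by 0.00 under cyclic loess. The forms Cox4i2 (lung), Cox6a2 and Cox8b (muscle) and Cox6b2 and Cox8c (testis) differed by -0.08, -0.18, -0.16, -0.32 and -0.25 (adjusted p between 0.122 and 0.748), Cox8c by 0.00 as the mean of its probe sets. With the block within each line Cox6b1 passed (adjusted p = 0.04). Cox6b2 was below the floor on both RAW alone arrays and close to it on the CT26 arrays, so its difference is not a measured one. Ndufa4 read 13 and 12.9 in CT26 alone, 12.79 and 12.79 in CT26 co-culture, 12.66 and 12.63 in RAW alone, and 12.41 and 12.37 in RAW co-culture. These values stepped down from group to group without overlap. Its line difference was -0.31 ± 0.11 alone (adjusted p = 0.0662) and -0.40 ± 0.11 in co-culture (adjusted p = 0.0257), and its relative Ndufa4l2 differed by -0.07 and -0.11.

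In complex V, Atp5l and Atp5g1 were called higher in RAW in both conditions. Atp5l, a subunit of the membrane part, read 12.91 and 12.87 in CT26 alone, 12.89 and 12.75 in CT26 co-culture, 13.63 and 13.59 in RAW alone, and 13.79 and 13.54 in RAW co-culture, with no overlap. It differed by 0.72 ± 0.13 alone and 0.84 ± 0.13 in co-culture (adjusted p = 0.00498 and 0.00237). Atp5g1, Atp5g2 and Atp5g3 encode the same mature ring subunit with different import sequences, and only the first passed the test without a block. Atp5g1 read 12.5 and 12.2, then 12.34 and 12.33 in the CT26 groups, and 12.86 and 12.72, then 12.82 and 12.84 in the RAW groups, a difference of 0.44 ± 0.14 alone (adjusted p = 0.0453) and 0.50 ± 0.14 in co-culture (adjusted p = 0.0296). The mean of all its probe sets gave adjusted p-values of 0.207 and 0.098 (limma). That mean takes in a probe set with a mean of 3.83, above the floor on 0 arrays. Atp5g2 and Atp5g3 differed by -0.36 ± 0.12 and -0.32 ± 0.11 alone (adjusted p = 0.056 and 0.0584; 0.00831 and 0.0148 with the block within each line), and by -0.37 and -0.32 in co-culture. The catalytic subunits Atp5a1 and Atp5b differed by 0.05 and -0.34 alone (adjusted p = 0.774 and 0.128), Atp5b with 0.01 under the block within each line.

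**Figure D3:**
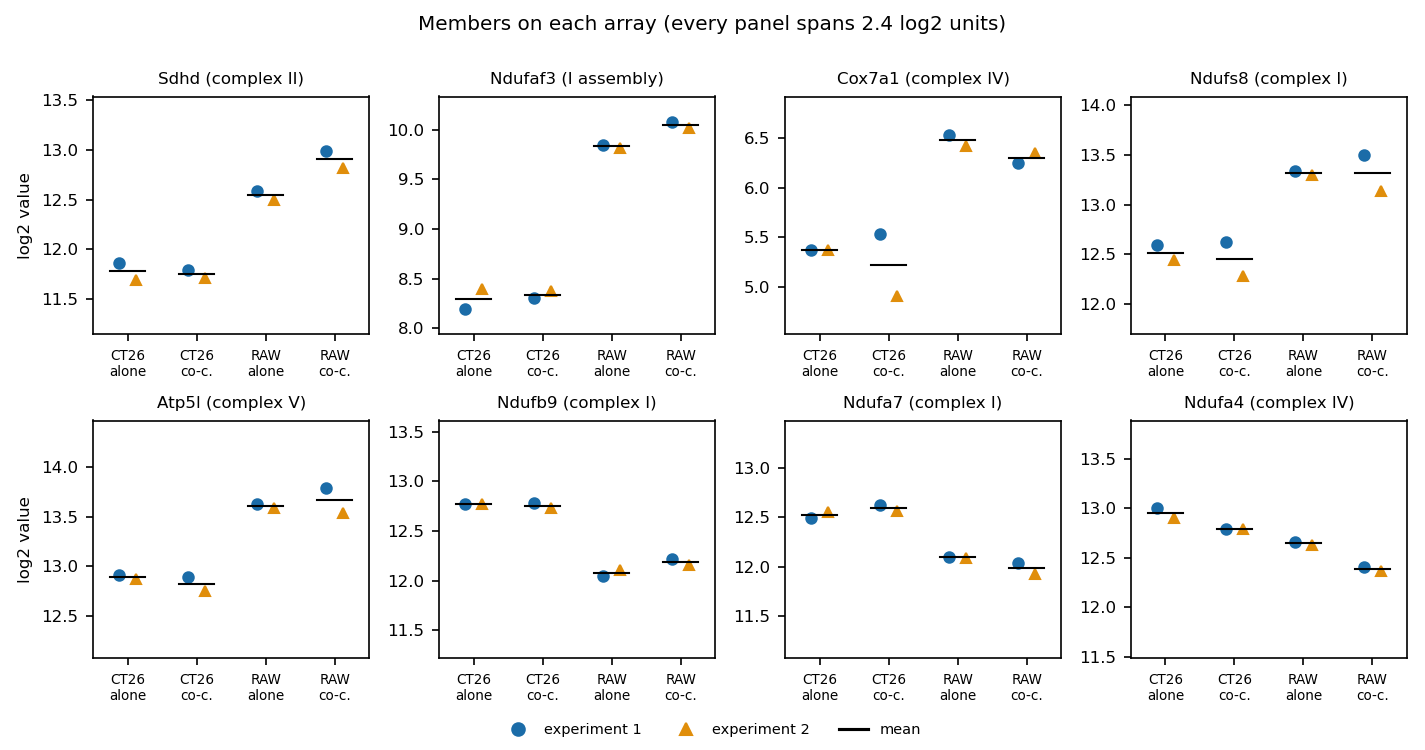
Log2 levels of 8 members on each array by group, with the experiments marked. RAW arrays lie above CT26 arrays for Sdhd, Ndufaf3, Cox7a1, Ndufs8 and Atp5l and below them for Ndufb9, Ndufa7 and Ndufa4, and Sdhd is highest in RAW co-culture (12.99 and 12.82).

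Of the 16 members called alone, 6 remained past the threshold under each omission of 1 array and each other setting in which they were tested (Atp5l, Cox7a1, Ndufaf3, Ndufb9, Ndufv3 and Sdhd). Of the 15 called in co-culture, 7 did (Atp5l, Cox7a1, Ndufa7, Ndufaf3, Ndufb9, Ndufs8 and Sdhd). The dim Cox7a1 was tested in only 7 of the 8 other settings, and the rest of these genes in all 8. Ndufb7, called alone, lost its call under every omission of 1 array (adjusted p from 0.0521 to 0.188, limma).

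In RAW cells, co-culture with CT26 changed no member past the threshold, with or without a block (0 of 90; 0.25% of all genes, or 33, without a block, 1.11% with the shared block and 3.56% with the block within each line). At an unadjusted p below 0.05 there was 1 member, Sdhd, and 694 genes (5.26%), and with the block within each line 9 members and 2418 genes (18.3%). Member differences between co-culture and alone ran from -0.26 to 0.36 log2 units, and none passed 0.5 in size, as 4.05% of all genes did. Their median was 0.02, beside 0.01 over all genes, and it ranged from -0.07 to 0.12 when single arrays were left out. In both experiments 28 members were higher in co-culture and 25 lower, beside 32.5% and 29.1% of all genes.

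Sdhd was 0.36 ± 0.13 log2 units higher in RAW co-culture (95% interval 0.06 to 0.66), by 0.41 in experiment 1 and 0.32 in experiment 2. Its adjusted p was 0.768 without a block, 0.148 with the shared block and 0.0757 with the block within each line (limma). A larger difference in size was found in 7.64% of the tested genes. Its second probe set gave 0.14. Ndufa4 was -0.25 ± 0.11 (-0.25 in each experiment; adjusted p = 0.96, or 0.179 with the block within each line). Uqcrc1 was 0.23 ± 0.11 (0.31 and 0.16) and Ndufaf3 0.22 ± 0.12 (0.24 and 0.20), with adjusted p-values of 0.222 and 0.24 under that block. Ndufc1 was -0.18 ± 0.11 (-0.22 and -0.14), Ndufb7 -0.16 ± 0.12 and Atp5j, a stalk subunit of complex V, -0.13 ± 0.13. None of these differences passed the threshold, in the fits with a block included.

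By complex, the median in RAW co-culture was 0.13 for the assembly factors of complex I (5 of 8 higher in both experiments) and 0.13 for complex III (5 of 9). It was 0.01 for complex I, 0.05 for complex II, -0.03 for complex IV (9 of 18 lower in both) and 0.00 for complex V. Under cyclic loess complex I lay at -0.01, and single-array omissions moved the medians of complexes I, IV and V and of the assembly factors across 0.

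In CT26 cells, co-culture with RAW changed no member either (0 of 90, with or without a block), and no gene of the 13196 was called (0%). At an unadjusted p below 0.05 there were 0 members and 107 genes (0.811%), or 752 genes (5.7%) and 0 members with the block within each line. Member differences ran from -0.17 to 0.21 log2 units. Their median was -0.04, beside -0.01 over all genes, and it ranged from -0.09 to 0.03 when single arrays were left out. In both experiments 12 members were higher in co-culture and 31 lower, beside 23.8% and 30.1% of all genes. Uqcrc1 read 12.1 and 12.16 alone and 12.25 and 12.31 in co-culture, a difference of 0.15 ± 0.11 (0.15 in each experiment). Ndufa4 was -0.16 ± 0.11 (-0.20 and -0.11). Ndufv3 had the highest value, 0.21 ± 0.20, which came to 0.37 in experiment 1 and 0.05 in experiment 2 and turned to -0.07 without CT26 co-culture of experiment 1. Sdhc, the other anchor of complex II, was 0.17 ± 0.23 and Ndufb1, an accessory subunit, -0.17 ± 0.17. Adjusted p was 0.9999 for each of these genes (limma).

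**Figure D4:**
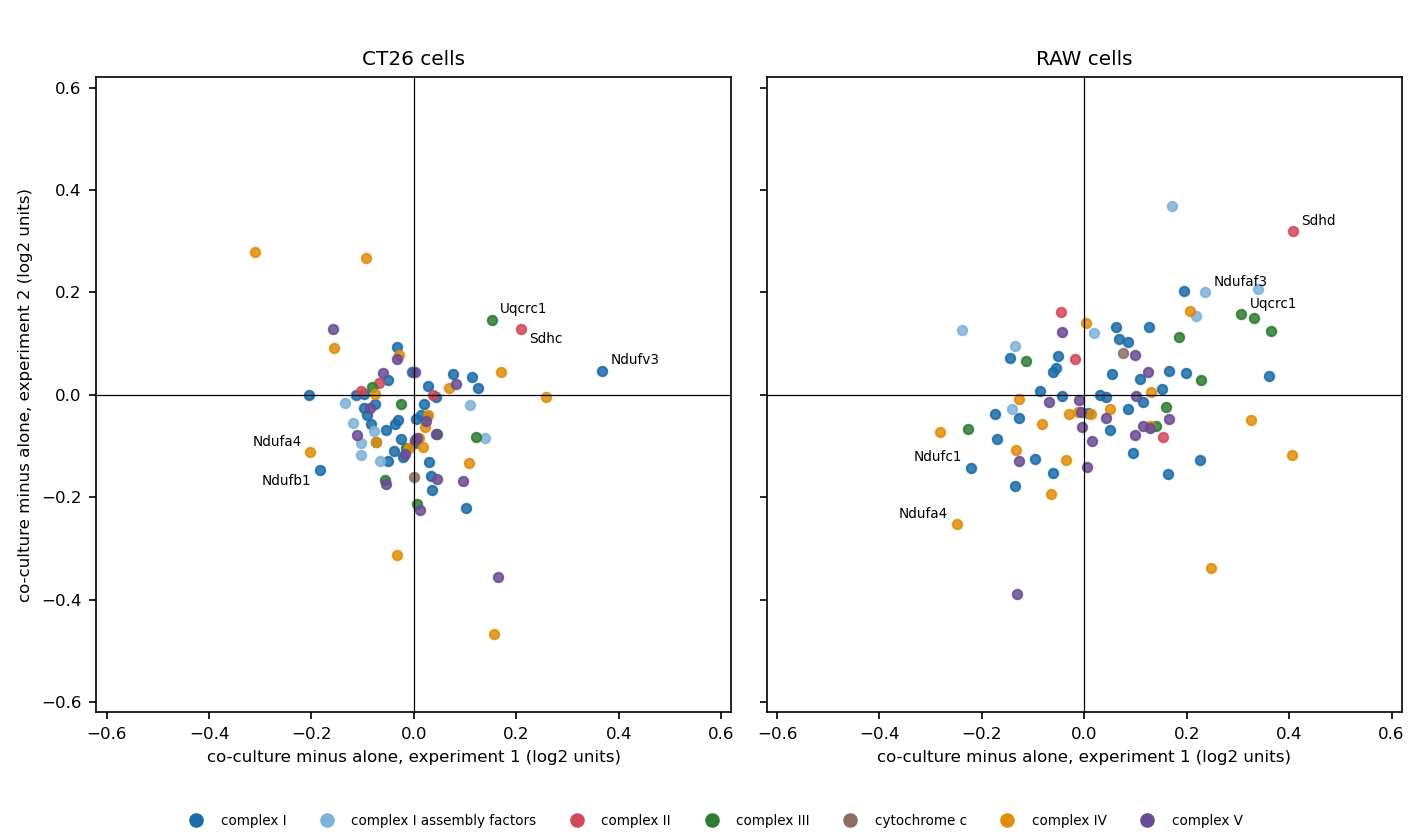
Co-culture minus alone (log2 units) in experiment 1 against experiment 2 for each tested member, in CT26 (left) and RAW (right), coloured by complex. Points gather around 0 in both lines, and Sdhd lies at 0.41 and 0.32 in RAW.

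The co-culture effects of the lines were compared directly, as the effect in RAW minus that in CT26. No member was called, without a block or with either block, beside 0.00758% of all genes (1 gene) without a block, 0.0834% with the shared block and 0.743% with the block within each line. At an unadjusted p below 0.05 there were 0 members and 328 genes (2.49%). Sdhd had the largest value, 0.39 ± 0.18 (0.48 and 0.30; 95% interval -0.04 to 0.81; adjusted p = 0.9998, or 0.279 with the block within each line). Uqcrfs1 was at 0.29 ± 0.20, Ndufaf4 at 0.29 ± 0.21, and Ndufa7 was at -0.18 ± 0.15. The median over members was 0.05, beside 0.02 over all genes, but 0.00 under cyclic loess. In both experiments 44 members were higher and 13 lower, beside 34.1% and 26.7% of all genes.

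The level of these genes differed between the experiments. From experiment 1 to experiment 2 the median difference of the members was -0.08 log2 units in CT26 alone, -0.11 in CT26 co-culture, -0.12 in RAW alone and -0.18 in RAW co-culture. That of all genes was 0.02, 0.02, 0.01 and -0.01. In all 4 groups, 53 of 90 members were lower in experiment 2 (58.9%) and 9 were higher, beside 21.8% and 24.9% of all genes. The share was 22 of 33 in complex I, 6 of 9 in complex III, 7 of 18 in complex IV and 9 of 17 in complex V. It was 52 of 76 (68.4%) among the proteins of the mitochondrial ribosome. Cyclic loess between arrays gave 47.8% of members and 21.5% of genes, and a median of -0.06 in place of -0.12 in RAW alone.

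Some members differed more between experiments than any member did between culture conditions. Cox7c, a small subunit of complex IV, differed by -0.28, -0.56, -1.22 and -1.08 (groups in the same order), and Atp5e, the epsilon subunit of complex V, by -0.27, -0.79, -0.51 and -0.76. Ndufaf1 differed by -0.36, -0.35, -0.62 and -0.51. Ndufa10, an accessory subunit of complex I, was higher in experiment 2 in each group, by 0.44, 0.40, 0.38 and 0.37. On the same arrays the 3′ minus 5′ signal of the Gapdh control probe sets lay between -0.22 and -0.19 in experiment 1 and between -0.16 and -0.12 in experiment 2. That of the actin control overlapped, with 0.04 to 0.16 in experiment 1 and 0.11 to 0.23 in experiment 2. The part of RNA quality in the shift was not tested.

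**Figure D5:**
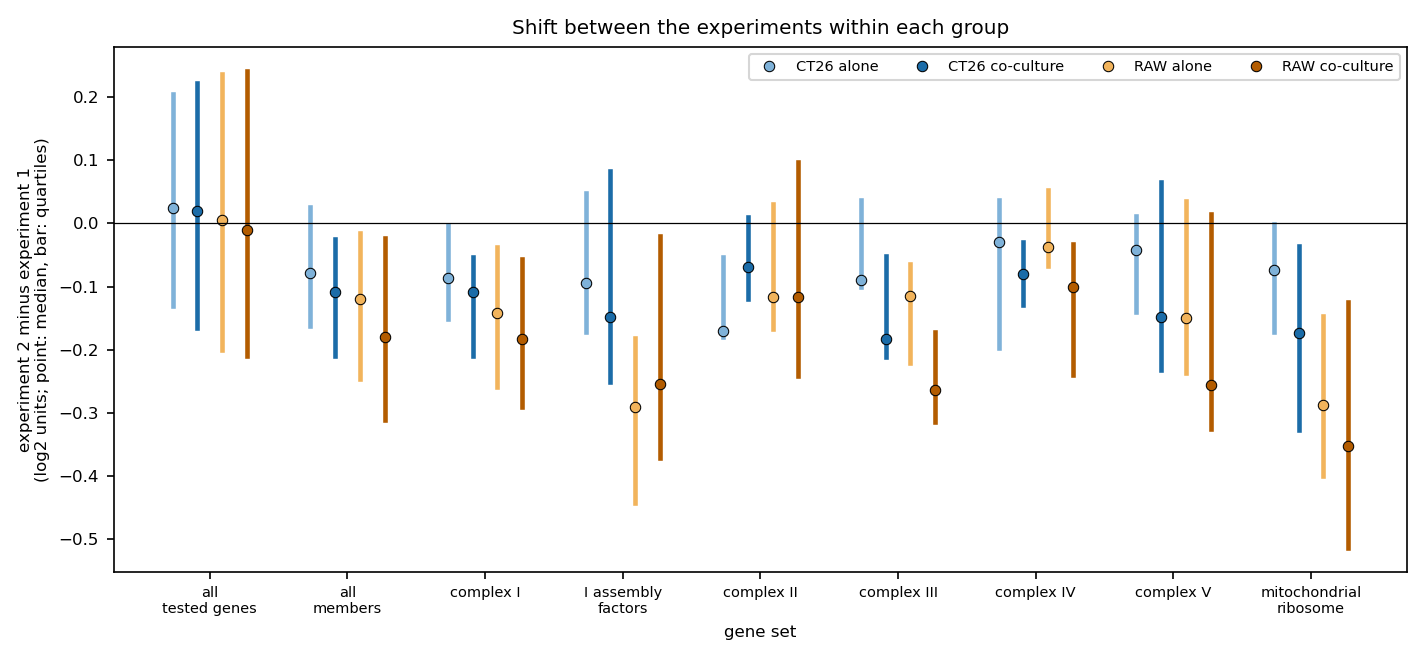
Experiment 2 minus experiment 1 (log2 units) within each of the 4 groups, as the median (point) and quartiles (bar) of each gene set. All tested genes lie near 0, and the members' medians lie between -0.08 and -0.18 in the deposited values.

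The wider pathway was described with lists of textbook members. In RAW co-culture no gene of the 49 tested assembly factors of all complexes (7 also members above), 27 biogenesis regulators, 12 genes of the TCA cycle, 24 of fuel routing or 76 of the mitochondrial ribosome was called without a block, nor was ND5, the tested mitochondria-encoded subunit. In CT26 co-culture none was called either. With the block within each line, Foxred1 and Cpt1a passed in RAW. Foxred1, an assembly factor of complex I, read 9.13 and 9.01 in RAW alone and 9.60 and 9.47 in RAW co-culture, a difference of 0.47 ± 0.13 (0.47 and 0.46; adjusted p = 0.541, or 0.0343 with that block). Cpt1a, which brings long-chain fatty acids to mitochondria, read 10.89 and 11.18 alone and 10.3 and 10.44 in co-culture, a difference of -0.66 ± 0.21 (adjusted p = 0.698, or 0.0132). With the shared block no gene of these lists passed in RAW co-culture (smallest adjusted p = 0.0732 for the assembly factors and 0.0504 for fuel routing). For Foxred1 and Cpt1a, the co-culture arrays did not overlap those grown alone, but the share of all genes without overlap was not counted. By the looser measure of direction, 32.5% of all genes were higher in RAW co-culture in both experiments and 29.1% lower.

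Other members of these lists with the largest statistics in RAW co-culture did not pass with any block. Ecsit, an assembly factor of complex I, was 0.40 ± 0.16, and Pdk1, which inhibits pyruvate dehydrogenase, was 0.39 higher. ND5, a core subunit of complex I, was -0.26 (-0.45 and -0.07). Mitochondrial ribosome genes had a median of 0.12, with 49 of 76 higher in both experiments and 7 lower, beside 32.5% and 29.1% of all genes, and -0.06 in CT26 co-culture. The medians in RAW co-culture were 0.07 for the assembly factors, 0.05 for the regulators, 0.09 for the TCA cycle and 0.07 for fuel routing.

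Between the lines grown alone, 15 of 49 assembly factors were called (7 higher in RAW, 8 lower), 6 of 27 regulators (2 and 4), 2 of 12 TCA cycle genes (Idh3g higher and Mdh2 lower), 11 of 24 fuel routing genes (5 and 6) and 13 of 76 ribosome genes (9 and 4), beside 34.6% of all genes. Among the fuel routing genes, Atpif1, the inhibitor of the ATP synthase, had the highest difference, 1.92 ± 0.14 (adjusted p = 5.21e-05). Pdha1, the catalytic subunit of pyruvate dehydrogenase and chosen after its values were seen, had the lowest, -1.49 ± 0.11 (adjusted p = 6.41e-05). Cpt1a was 1.52 ± 0.21 higher in RAW (adjusted p = 0.00144).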

How the data were processed

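Gene expression was read from 8 one-colour Affymetrix arrays, each given cRNA from 5 µg of total RNA. The deposited values are log2 expression values, which the submitters' processing notes credit to RMA and the affy package. Their versions and settings were not given in the sources used here. Of 45101 probe sets, 64 controls were left out. Genes were named by the platform annotation, with 1 probe set per gene (single symbol, highest mean). The 92 members had 184 probe sets of their own, and 10 with several symbols were left out. Genes were tested where both arrays of a group or more exceeded those arrays' 40th percentiles. The means of the 4 groups were fitted with limma 3.58.1 in R 4.3.3 (lmFit, eBayes, two-sided), and p-values were adjusted by Benjamini-Hochberg over 13196 genes at a threshold of 0.05. Named genes were those called, the largest by statistic in each comparison and complex, and a list of isoforms and catalytic subunits. The member with the highest level was not named, since levels of different probe sets cannot be compared.

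The replicate numbers in the sample titles were taken to mark the 2 experiments. Arrays with the same number deviated together from their groups' means (r from 0.484 to 0.765 over all tested genes), so the numbers pair the samples, and values with the experiment as a block, shared or within each line, stand beside the others. The members and lists were chosen with earlier results of these data known. The number of arrays limits the precision: the median standard error of a member's co-culture effect was 0.144 log2 units, or 0.0862 with the block within each line. RefSeq promoters were matched by gene identifier.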

Additional observations from a re-analysis of the deposited data

How the results depend on the processing

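The replicate block changed counts most. Genes called in RAW co-culture rose from 33 to 146 (shared block) or 470 (block within each line), and were 4 with only the arrays of that line in the fit. For the difference of effects they rose from 1 to 11 or 98, with 4 under a mean-variance trend and 0 without probe sets ending in _x_at or _s_at. Between the lines alone the blocks gave 36 and 42 members and 6978 and 7735 genes, and in co-culture 31 and 37 members and, within each line, 7652 genes. The blocks changed no call of a member in the co-culture effects. Under cyclic loess the median difference of effects over members was 0.00198 and the shift between experiments in RAW alone -0.0565. The mean of all probe sets reversed Nrf1 (0.0103), Dlst (-0.159) and Sucla2 (-0.0399) in CT26 co-culture (the same values without _x_at and _s_at), and Cox8c (0.00319) and Sdha (-0.00103) between the lines alone. Cyclic loess reversed Cox6a1 (0.00483). Leaving out 1 array gave 6 to 14 members called between the lines alone and 7 to 16 in co-culture, 2 to 30 genes in RAW co-culture and 0 to 2 for the difference of effects. The members' median then ranged from -0.0924 to 0.0265 in CT26 co-culture, -0.0676 to 0.122 in RAW co-culture, -0.0487 to 0.147 for the difference of effects, -0.112 to 0.0148 between the lines alone and -0.0291 to 0.133 in co-culture. Single genes that changed sign without 1 array ranged as follows. In CT26 co-culture these were Cs (-0.113 to 0.0361), Cycs (-0.169 to 0.0085), Dlst (-0.203 to 0.337), Fh1 (-0.223 to 0.0231), Gabpb1 (-0.00135 to 0.19), Higd1a (-0.223 to 0.705), Ldhb (-0.202 to 0.00615), Mrpl10 (-0.0513 to 0.26), Myc (-0.138 to 0.561), Ndufa3 (-0.22 to 0.015), Ndufv3 (-0.0698 to 0.485), Sirt3 (-0.253 to 0.02) and Sucla2 (-0.0271 to 0.11). In RAW co-culture they were Cycs (-0.03 to 0.185), Myc (-1.68 to 0.327) and Tfb2m (-0.31 to 0.0548). Between the lines alone they were Cox4i2 (-0.273 to 0.112), Cox8b (-0.326 to 0.0141) and Ndufv1 (-0.0463 to 0.0768), and for the difference of effects Ndufv3 (-0.456 to 0.0985). None of these passed the test. The cause was not tested in any of these cases. The settings for the shift between experiments were chosen after seeing the data.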
